A study of Mus musculus with 6 samples.

Results

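The replication-dependent histone genes were described in cultured mouse spermatogonia in which the cell cycle inhibitor gene Cdkn1c, which encodes p57, had been deleted. The members were chosen by name, as the rows of the count table whose symbol begins with Hist1h, Hist2h, Hist3h or Hist4h, which gave 67 of the 32285 genes in the table. By class they were 6 linker histone H1 genes, 18 H2A genes, 18 H2B genes, 12 H3 genes and 13 H4 genes. The Hist1 cluster on chromosome 13 held 54 of them, Hist2 on chromosome 3 held 10, Hist3 on chromosome 11 held 2 and Hist4 on chromosome 6 held 1. No measured value entered the rule, but the family was taken up with results of this comparison known, so its counts are a description and not a test of the family.

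The cells were GS cells, that is germline stem cells kept as spermatogonial cultures, and all 6 libraries carried Cdkn1c alleles flanked by loxP sites on both chromosomes. The p57 KO group (3 libraries, genotype p57 flox/flox-Cre) had received an adenovirus carrying Cre recombinase, and the control group (3 libraries, genotype p57 flox/flox) is labelled without Cre. RNA was taken 2 days after infection, after trypsin dissociation and passage over a Sephadex column. The deletion was made by a virus in whole cultures, and which cells the virus reached is not stated. The labels do not say what virus, if any, the controls were given. The sources differ on the mice the cultures came from: the growth protocol gives 3-day-old animals and the model tag BDF1, and the design text gives 10-day-old animals of C57BL/6 and 129 strains. The libraries came from a stranded kit for mRNA and were sequenced as single 76-base reads. Nothing in the labels says that the libraries of a group came from separate cultures or animals, so a p-value covers no more than library-to-library spread, part or all of which may be technical.

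Histones are the proteins around which DNA is wound: H2A, H2B, H3 and H4 form the nucleosome core and H1 binds the linker DNA outside it. The replication-dependent genes supply histones during S phase, when new DNA has to be packaged. Their mRNAs generally have no introns and no poly(A) tail, and end just after a conserved stem-loop that the stem-loop binding protein SLBP holds through processing, translation and decay. Kits for mRNA select RNA by its poly(A) tail, so the levels given here cover what the kit captured and do not measure the whole pool of histone mRNA.

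The stem-loops are shown because they are the feature that sets these mRNAs apart and because they differ by class. A stem of 6 paired bases beginning with GG around a loop of 4 bases beginning with TT was found after the stop codon in the GENCODE transcripts of 44 members and was not found by this search in the other 23, some of whose annotated transcripts end at the stop codon. It lay 21 to 58 bases after the stop codon. In the lines that follow (mm10, read on the strand of the gene, 5′ to 3′), capitals mark stem and loop, and the 5 bases on either side are in lower case.
Hist1h1c (H1, chr13:23739507-23739532, plus strand): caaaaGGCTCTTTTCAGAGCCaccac
Hist1h2ac (H2A, chr13:23683472-23683497, minus strand): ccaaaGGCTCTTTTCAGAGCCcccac
Hist1h2bm (H2B, chr13:21722501-21722526, plus strand): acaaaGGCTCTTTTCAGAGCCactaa
Hist1h3c (H3, chr13:23745042-23745067, minus strand): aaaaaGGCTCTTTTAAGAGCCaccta
Hist1h4d (H4, chr13:23581945-23581970, plus strand): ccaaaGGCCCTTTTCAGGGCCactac
Hist1h4i (H4, chr13:22040961-22040986, minus strand): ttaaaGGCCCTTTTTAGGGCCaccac
Hist1h4j (H4, chr13:21735432-21735457, plus strand): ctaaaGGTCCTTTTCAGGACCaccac
Hist4h4 (H4, chr6:136803993-136804018, minus strand): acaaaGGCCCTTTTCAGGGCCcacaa
All 33 stem-loops found outside the H4 class opened with GGCTCT. The 11 found in H4 genes opened with GGCCCT in 9 cases and with GGTCCT in 2. The loop read TTTC in 35 members, TTTA in 6 and TTTT in 3.

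Histone transcripts took a small part of each library, and a larger part in p57 KO cells. The 67 members together had 1358, 1394 and 1621 counts in the p57 KO libraries, against 921, 961 and 972 counts in the control libraries. Library totals overlapped, at 15940375, 16417794 and 17893671 counts in p57 KO libraries and 16460019, 16979459 and 15662833 counts in control libraries. As CPM, counts relative to library size after TMM scaling, the summed level was 85.7, 84.9 and 90.8 CPM in p57 KO cells and 55.9, 56.6 and 62.1 CPM in control cells. Every p57 KO library lay above every control library, with means of 87.1 ± 3.21 CPM and 58.2 ± 3.43 CPM (SD, n = 3 each), a ratio of 1.497.

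All 5 classes had a higher summed level in every p57 KO library than in every control library. H1 genes summed to 30.7, 30.7 and 32.0 CPM in p57 KO cells and 21.8, 24.4 and 25.95 CPM in control cells, a ratio of means of 1.30. H2A genes summed to 7.01, 7.85 and 8.01 CPM in p57 KO cells and 4.73, 4.24 and 4.16 CPM in control cells, a ratio of 1.74. H2B genes summed to 18.6, 18.3 and 18.3 CPM in p57 KO cells and 11.5, 11.9 and 13.6 CPM in control cells, a ratio of 1.49. Among these 3 classes the linker histones had the lowest ratio. Hist1h1c alone held 21.55 of the mean H1 sum of 31.13 CPM in p57 KO cells. In control cells it held 19.08 of 24.03 CPM, so the H1 ratio is largely that of this gene. H3 genes summed to 5.81, 7.91 and 8.18 CPM in p57 KO cells and 3.94, 4.30 and 5.37 CPM in control cells, a ratio of 1.61, and this class came nearest to overlapping. H4 genes summed to 23.6, 20.2 and 24.3 CPM in p57 KO cells and 14.0, 11.8 and 13.1 CPM in control cells, a ratio of 1.75. Whether the ratios of the classes differ from each other was not tested.

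**Figure D1:**
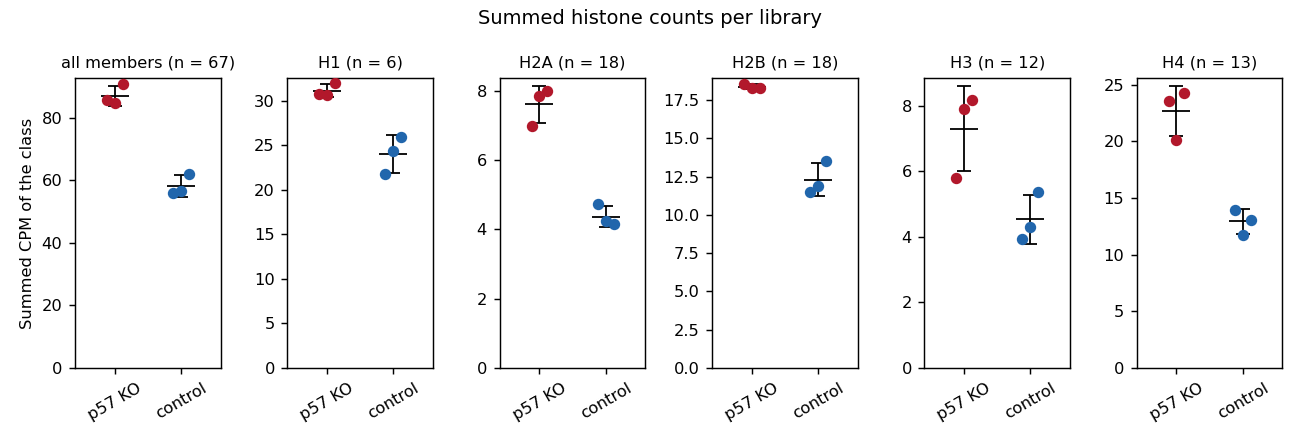
Summed CPM of the members of each histone class, 1 point per library, with p57 KO left of control in each panel and bars for the group mean and 1 SD. The first panel sums all 67 members. All 3 p57 KO points lie above all 3 control points in each class, and the H3 panel has the narrowest gap.

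By cluster, Hist1 genes summed to a mean of 77.6 ± 2.195 CPM in p57 KO cells and 52.2 ± 3.52 CPM in control cells (SD, n = 3 each). The cluster lies in 2 blocks: the 23 members of the block nearer the chromosome start had a ratio of 1.56 and the 31 members of the other block a ratio of 1.46. Hist2 genes summed to 3.41, 3.47 and 3.75 CPM in p57 KO cells and 1.58, 1.77 and 1.28 CPM in control cells, a ratio of 2.30 with groups well apart. The Hist3 genes were the exception, with 3.41, 4.26 and 5.15 CPM in p57 KO cells and 4.55, 3.24 and 3.90 CPM in control cells, so that the groups overlapped.

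The 3 members with most counts, Hist1h1c, Hist1h4i and Hist1h2bc, held 3523 of the 7227 counts of the family over the 6 libraries, and their ratio was smaller than that of the rest. Their share of the family's counts was 43.9%, 44.6% and 44.2% in the p57 KO libraries and 54.4%, 57.7% and 54.8% in the control libraries. Summed, these 3 had a mean of 38.6 ± 1.40 CPM in p57 KO cells and 32.4 ± 1.85 CPM in control cells, a ratio of 1.19. The other 64 members summed to 48.1, 47.0 and 50.6 CPM in p57 KO cells and 25.5, 24.0 and 28.1 CPM in control cells, a ratio of 1.88. Low counts limit what can be said of single members: 14 of the 67 had 10 or fewer counts in all libraries together, and Hist2h2ac, Hist1h2ao and Hist1h2ap had none.

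Gene by gene, 29 members had enough counts to be tested by edgeR's quasi-likelihood F-test fitted over all 14814 genes that passed the filter on low counts. Of these, 15 were higher in p57 KO cells at a Benjamini-Hochberg adjusted p under 0.05, 0 were lower and 14 were not called. Over all genes tested, 11.6% were called higher and 11.6% lower. The log2 fold changes of the called members ran between 0.56 and 2.54. Those of the members not called ran between -0.20 and 1.38, and 11 of those 14 were above 0. The median log2 fold change of the 29 was 1.07, and that of all genes tested was -0.0019. DESeq2 called 9 of the 15 and lost Hist1h1e, Hist1h1b, Hist1h2aa, Hist1h4c, Hist1h2ac and Hist1h2bm. Of all 15553 genes to which DESeq2 gave an adjusted p, it called 2453 changed in either direction.

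The filter bears on these counts. Of the 29 members tested, 17 reached the filter level of 0.608 CPM in the 3 p57 KO libraries and in too few control libraries to have passed through them, and 12 of the 15 called members were among these, so neither the share called among tested members nor their median is evidence about the family. Of all 14814 genes tested, 563 passed through the p57 KO libraries in that way. Of the 9 members at that level in all 3 control libraries, 3 were called, Hist1h1a, Hist1h2bc and Hist1h4d, and the other 6 were not. Without the filter, 64 members could be fitted, 21 were called higher and 0 lower, where 9.02% of all genes fitted were called higher. Counting all 64 members with at least 1 count, 27 had every p57 KO library above every control library and 0 had every one below. Over all 23200 genes with a count, those shares were 15.5% above and 13.3% below. The 38 members not tested had at most 20 counts in any library.

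**Figure D2:**
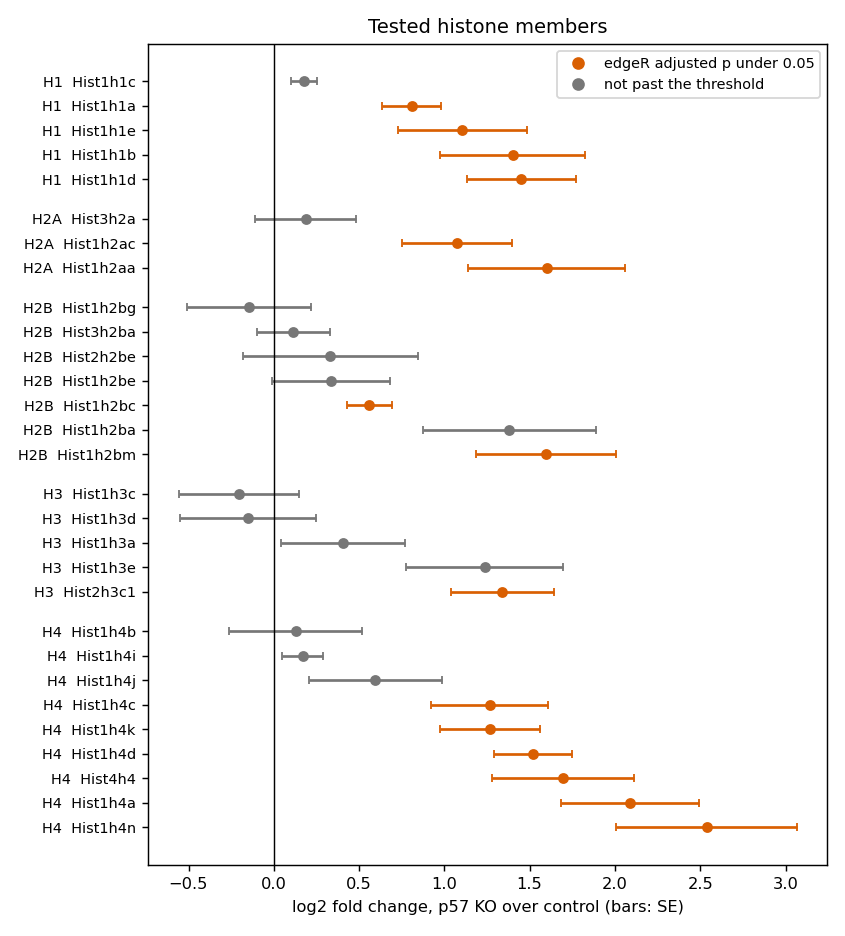
Log2 fold change of p57 KO over control for each of the 29 members tested, with 1 standard error on either side, grouped by class. Orange points are the 15 members called higher and grey points the 14 not called; Hist1h4n lies farthest right at 2.54, and the 3 points left of 0 are not called.

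Of the 5 H1 genes tested, 4 rose, and 3 of the 5 passed the filter through p57 KO libraries alone. The counts called by class stand beside 11.6% called higher over all genes tested. Nothing is read from them, here or in the classes that follow. Hist1h1c (ENSMUSG00000036181, chr13:23738808-23740367, mm10) is a widely expressed linker histone and had the most counts of any member, 334, 357 and 390 in p57 KO libraries and 289, 325 and 322 in control libraries. Its CPM values were 21.1, 21.7 and 21.8 in p57 KO cells and 17.5, 19.1 and 20.6 in control cells, so the groups did not overlap, but the log2 fold change of 0.18 ± 0.077 (SE) was not called (edgeR adjusted p = 0.0988). Hist1h1a, whose 85, 79 and 96 counts in p57 KO libraries stood against 44, 45 and 56 in control libraries, rose by 0.81 ± 0.17 on the log2 scale (edgeR adjusted p = 0.0015). Hist1h1a is a replication-dependent linker histone, and the search found no stem-loop in its annotated transcript. Hist1h1d had 29, 32 and 40 counts in p57 KO libraries and 8, 20 and 8 in control libraries, a log2 fold change of 1.45 ± 0.32 at an edgeR adjusted p of 0.00207. Its annotated transcript is 1 exon of 7425 bases with 4884 bases after the stem-loop. Its counts can therefore include reads from outside the mRNA that ends at the stem-loop.

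The other H1 genes rested on fewer counts. Hist1h1b, another somatic linker histone, had 12, 23 and 14 counts in p57 KO libraries and 5, 8 and 5 in control libraries, a log2 fold change of 1.40 ± 0.42 at an edgeR adjusted p of 0.0192. Its call was lost without p57 KO replicate 2 (edgeR adjusted p = 0.14), without control replicate 1 (edgeR adjusted p = 0.0786) and without control replicate 3 (edgeR adjusted p = 0.0769). Hist1h1e had 23, 11 and 28 counts in p57 KO libraries and 10, 11 and 7 in control libraries, and the lowest p57 KO library, at 0.67 CPM, lay just above the highest control library, at 0.647 CPM. Its log2 fold change of 1.11 ± 0.38 passed narrowly (edgeR adjusted p = 0.0375), and its adjusted p lay between 0.0749 and 0.166 without p57 KO replicate 1, p57 KO replicate 3 or any 1 of the 3 control libraries. Hist1h1e overlaps Hist1h2be on the same strand in the annotation, so its counts are uncertain. Hist1h1t encodes the linker histone of spermatocytes. It had 4, 2 and 3 counts in p57 KO libraries and 3, 5 and 8 in control libraries, was not tested, and is a member whose total was lower in p57 KO cells.

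Of 18 H2A genes only 3 could be tested, and 2 of them rose. Of the 3, 2 passed the filter through p57 KO libraries alone. Hist1h2ac, a core histone gene of the Hist1 cluster, had 22, 37 and 25 counts in p57 KO libraries and 16, 15 and 8 in control libraries, a log2 fold change of 1.07 ± 0.32 at an edgeR adjusted p of 0.0182. That call was lost without p57 KO replicate 2 (edgeR adjusted p = 0.135) and without control replicate 3 (edgeR adjusted p = 0.108). Hist1h2aa encodes a testis-specific H2A and had 15, 18 and 11 counts in p57 KO libraries and 4, 3 and 7 in control libraries, with no overlap and a log2 fold change of 1.60 ± 0.46 at an edgeR adjusted p of 0.0146. Its call was lost without p57 KO replicate 2, control replicate 1 or control replicate 2, with edgeR adjusted p of 0.0764, 0.0607 and 0.0779. Hist3h2a had 19, 20 and 43 counts in p57 KO libraries and 26, 21 and 23 in control libraries. Only the third p57 KO library stood above the controls, and the gene was not called (log2 fold change 0.19 ± 0.30, edgeR adjusted p = 0.697). It also overlaps Trim17 on the same strand. Hist1h2ae, not tested, had 12, 8 and 12 counts in p57 KO libraries and 6, 7 and 9 in control libraries.

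Of 7 H2B genes tested, 2 rose, and 4 of the 7 passed the filter through p57 KO libraries alone. Hist1h2bc, the H2B gene with most counts, had 129, 141 and 171 in p57 KO libraries and 86, 101 and 105 in control libraries, a log2 fold change of 0.56 ± 0.13 at an edgeR adjusted p of 0.00355. Its annotated transcript has 2 exons and holds no stem-loop by the search, unlike that of a typical replication-dependent gene. Hist1h2bm had 16, 16 and 15 counts in p57 KO libraries and 5 in each control library, a log2 fold change of 1.60 ± 0.41 at an edgeR adjusted p of 0.00707. Hist1h2ba encodes the testis-specific H2B and is the neighbour of Hist1h2aa, transcribed the opposite way. It had 21, 11 and 11 counts in p57 KO libraries and 10, 2 and 4 in control libraries, which did not overlap, and its log2 fold change of 1.38 ± 0.51 was not called (edgeR adjusted p = 0.0528). It was called without p57 KO replicate 3 (edgeR adjusted p = 0.0311) and without control replicate 1 (edgeR adjusted p = 0.0195). Hist3h2ba, Hist1h2bg and Hist1h2be overlapped between groups. Hist3h2ba had 35, 50 and 49 counts in p57 KO libraries and 49, 34 and 38 in control libraries. Hist1h2bg had 20, 14 and 11 counts in p57 KO libraries and 10, 21 and 18 in control libraries, and Hist1h2be had 16, 15 and 18 in p57 KO libraries and 8, 16 and 14 in control libraries. Hist1h2aa and Hist1h2ba thus had more counts in every p57 KO library than in any control library, on few counts, while the third testis-specific member, Hist1h1t, had fewer in total in p57 KO libraries.

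Of 5 H3 genes tested, 1 rose, and 3 of the 5 passed the filter through p57 KO libraries alone. Hist2h3c1, an H3 gene of the Hist2 cluster, had 24, 32 and 35 counts in p57 KO libraries and 12, 15 and 8 in control libraries, a log2 fold change of 1.34 ± 0.30 at an edgeR adjusted p of 0.00253. The groups did not overlap, and 66.2% of the gene's 76-base stretches are unique to it. Hist1h3e had 11, 24 and 21 counts in p57 KO libraries and 2, 8 and 13 in control libraries, which overlapped, and its log2 fold change of 1.24 ± 0.46 was not called (edgeR adjusted p = 0.0602). It was called without p57 KO replicate 1 (edgeR adjusted p = 0.0154) and without control replicate 3 (edgeR adjusted p = 0.0253). Hist1h3c had 11, 11 and 18 counts in p57 KO libraries and 13, 13 and 19 in control libraries, a log2 fold change of -0.20 ± 0.35. Hist1h3a had 14, 13 and 15 counts in p57 KO libraries and 12, 8 and 11 in control libraries, a log2 fold change of 0.40 ± 0.36. For neither was a difference detectable at this depth (edgeR adjusted p = 0.726 and 0.46).

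Of 9 H4 genes tested, 6 rose, and 5 of the 9 passed the filter through p57 KO libraries alone. Among the 6 were the 3 largest log2 fold changes of the members tested, all from genes that passed in that way. Hist1h4d (ENSMUSG00000061482, chr13:23581598-23582735, mm10) had 64, 60 and 61 counts in p57 KO libraries and 27, 15 and 21 in control libraries. The groups stood far apart relative to their spread, with means of 3.70 ± 0.31 CPM in p57 KO cells and 1.29 ± 0.38 CPM in control cells (SD, n = 3 each), and the log2 fold change of 1.52 ± 0.23 had the lowest p of the family (edgeR adjusted p = 6.07e-05). All H4 genes of the clusters encode nearly the same protein, so the members differ in their regulation and their mRNA more than in their product. Hist1h4i (ENSMUSG00000060639, chr13:22040636-22041362) had the most counts of the class, 133, 124 and 156 in p57 KO libraries and 126, 128 and 106 in control libraries. Its groups overlapped, at 7.55 to 8.74 CPM in p57 KO cells and 6.78 to 7.64 CPM in control cells, and it was not called (log2 fold change 0.17 ± 0.12, edgeR adjusted p = 0.346).

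Hist1h4n had 21, 16 and 12 counts in p57 KO libraries and 5, 2 and 1 in control libraries, the largest log2 fold change of the members tested at 2.54 ± 0.53 (edgeR adjusted p = 0.0013). Only 16.9% of its 76-base stretches are unique to it, so its counts depend on how shared reads were assigned. Hist1h4a had 22, 16 and 24 counts in p57 KO libraries and 4, 4 and 6 in control libraries, a log2 fold change of 2.09 ± 0.40 at an edgeR adjusted p of 0.000676. Hist4h4, the single gene of its cluster, had 33, 21 and 33 counts in p57 KO libraries and 10, 2 and 14 in control libraries, a log2 fold change of 1.70 ± 0.42 at an edgeR adjusted p of 0.00708. All 3 of these H4 genes had no overlap between groups. Hist1h4k had 33, 29 and 37 counts in p57 KO libraries and 16, 9 and 15 in control libraries, or 1.27 ± 0.29 on the log2 scale (edgeR adjusted p = 0.00293). Hist1h4c had 22, 25 and 35 counts in p57 KO libraries and 11, 6 and 16 in control libraries, a log2 fold change of 1.27 ± 0.34 at an edgeR adjusted p of 0.00953. Its call was lost without control replicate 2 (edgeR adjusted p = 0.0699).

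**Figure D3:**
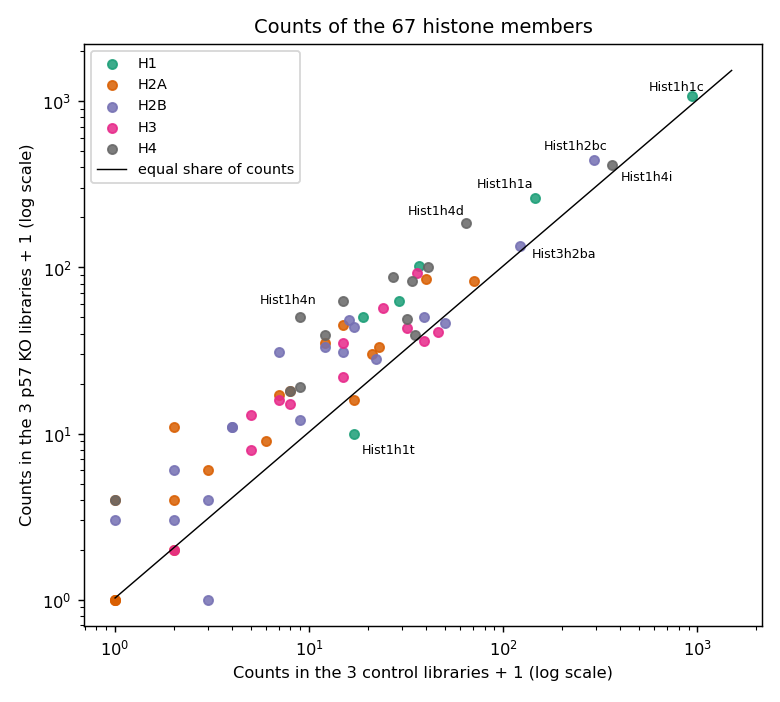
Counts of each of the 67 members summed over the 3 p57 KO libraries (vertical axis) against the 3 control libraries (horizontal axis), both plus 1 on log scales and coloured by class; the line marks an equal share of counts. Hist1h1c and Hist1h4i, with the most counts, lie close to the line, Hist1h4d and Hist1h4n lie above it, and Hist1h1t lies below it.

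Per kilobase of annotated exon, the highest mean levels were those of Hist1h1c, 13.8 CPM per kb in p57 KO cells and 12.2 in control cells, and of Hist1h4i, 11.3 CPM per kb in p57 KO cells and 10.1 in control cells. Hist1h2bc followed with 7.59 CPM per kb in p57 KO cells and 5.15 in control cells, and Hist1h1a with 6.996 in p57 KO cells and 4.003 in control cells. Of the 15 called members, 11 had group means under 2 CPM in both groups, so most of the calls concern genes with few captured transcripts.

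The length of annotated transcript after the stem-loop, which the rule did not use, sorts the members into sets that can be read against the levels. For 22 members the annotated transcript runs on for 100 or more bases after the stem-loop, 22 have fewer than 100, and 23 have no stem-loop by the search. The longer set summed to 52.3, 52.7 and 56.5 CPM in p57 KO cells and 38.7, 40.1 and 42.0 CPM in control cells, a ratio of 1.34, and 7 of its 16 tested members rose. The shorter set summed to 9.03, 8.34 and 9.91 CPM in p57 KO cells and 4.55, 4.77 and 4.67 CPM in control cells, a ratio of 1.95, and 2 of its 5 tested members rose. The set without a stem-loop summed to 24.4, 23.9 and 24.4 CPM in p57 KO cells and 12.6, 11.7 and 15.5 CPM in control cells, a ratio of 1.83, and 6 of its 8 tested members rose. Within each set no p57 KO library overlapped a control library. The called counts stand beside 11.6% called higher over all genes tested, and of the tested members 9 of 16, 3 of 5 and 5 of 8 in these sets passed the filter through p57 KO libraries alone, so nothing is read from them. The longer set holds Hist1h1c and Hist1h4i, and the difference between the sets was not tested.

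Sequence sharing limits the single-gene values. A 76-base read can come from more than 1 place where histone genes are near-identical, and the share of each gene's 76-base stretches found at no other annotated place ran between 0 and 100%. In 21 members it was 80% or more and in 26 it was under 50%. Of the 15 called members, 10 were in the first set and 2, Hist1h4k and Hist1h4n, in the second. The sources do not state how reads that matched several places were treated.

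Histone promoters are known for class-specific elements, and the promoter stretch of a member is shown for each of 3 classes. RefSeq promoters (GRCm38.p6, 250 bases before to 50 after the start) were matched for 62 members and searched on both strands. The octamer ATTTGCAT was present in 38.9% of 18 H2A promoters, 37.5% of 16 H2B promoters and in none of the H1, H3 or H4 promoters, against 1.74% of all 32851 promoters. The H1 box AAACACA was present in 5 of 6 H1 promoters and in 7.18% of all promoters. CCAAT was present in every H1, H2A, H2B and H3 promoter searched and in 3 of 12 H4 promoters, against 37.4% of all. TATAAA was present in 56.5% of the members' promoters and in 13.6% of all. The E2F-like letters TTTCCCGC were present in 1 of 62 member promoters and 1.07% of all, and TTTGGCGC in 0 of 62 and 0.514% of all. A match is a description of letters and not a site. In the lines that follow, the 250 bases before the start are given on the gene's strand, with matches to any of these letters in capitals; no matches overlap each other there.
Hist1h1d (H1, chr13:23554782-23555031, plus strand): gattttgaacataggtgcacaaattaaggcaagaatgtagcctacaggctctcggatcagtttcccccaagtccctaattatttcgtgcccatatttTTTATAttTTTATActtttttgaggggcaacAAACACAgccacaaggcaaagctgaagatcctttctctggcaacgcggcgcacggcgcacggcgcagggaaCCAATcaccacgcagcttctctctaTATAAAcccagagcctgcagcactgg
Hist1h2aa (H2A, chr13:23934187-23934436, plus strand): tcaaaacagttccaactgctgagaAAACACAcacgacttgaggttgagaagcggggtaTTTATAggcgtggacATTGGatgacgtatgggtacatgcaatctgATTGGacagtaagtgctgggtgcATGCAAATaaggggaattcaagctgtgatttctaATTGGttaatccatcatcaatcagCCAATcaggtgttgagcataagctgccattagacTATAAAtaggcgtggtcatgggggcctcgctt
Hist1h4d (H4, chr13:23581318-23581567, plus strand): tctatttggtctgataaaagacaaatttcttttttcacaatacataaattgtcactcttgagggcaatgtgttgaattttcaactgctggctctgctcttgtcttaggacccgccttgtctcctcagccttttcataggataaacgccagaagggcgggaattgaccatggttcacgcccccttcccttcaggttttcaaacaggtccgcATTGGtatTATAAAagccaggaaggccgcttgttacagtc
The stretch before Hist1h2aa is for the most part also the region before Hist1h2ba, which is transcribed the other way from it, so the octamer, reading ATGCAAAT here, lies between both testis-specific genes. The Hist1h2aa stretch also holds the H1 box letters AAACACA, which were present in 2 of 18 H2A promoters. The Hist1h1d stretch holds the H1 box and CCAAT, and lies inside the GENCODE transcript of that gene, which begins at chr13:23553262. The Hist1h4d stretch holds CCAAT on the opposite strand next to TATAAA. Hist1h4d is thus 1 of the 3 of 12 H4 promoters with CCAAT. The letters searched included no element particular to H4, so the search cannot say whether the stretch holds one.

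Genes that act around histone mRNA and protein were read from lists chosen for the purpose. The counts called in each list stand beside 11.6% called higher and 11.6% called lower over all genes tested. Among 15 replacement and variant histones outside the rule, which are made throughout the cell cycle from polyadenylated mRNA in most cases, 11 were tested, 2 rose and 5 fell, with a median log2 fold change of -0.12. H2afj, an H2A variant, rose by 0.65 ± 0.064 on the log2 scale (edgeR adjusted p = 2.72e-07), with 34.8 to 38.1 CPM in p57 KO cells and 21.9 to 23.4 CPM in control cells. H2afy, which encodes macroH2A, fell by 0.26 on the log2 scale (SE 0.044, edgeR adjusted p = 0.000427), and H3f3a, an H3 replacement histone, fell by 0.15 (SE 0.031, edgeR adjusted p = 0.00121). Of 23 genes of histone mRNA 3′ processing and control, all tested, 0 rose and 1, Snrpb, fell, by 0.093 on the log2 scale (SE 0.027, edgeR adjusted p = 0.0161), and the median was 0.012. Slbp, which encodes the stem-loop binding protein, had 190.2 to 200.1 CPM in p57 KO cells and 184.1 to 194.2 CPM in control cells, which overlapped (log2 fold change 0.054 ± 0.031, edgeR adjusted p = 0.232). Npat, the activator of histone gene transcription, was not called either (log2 fold change -0.086 ± 0.035, edgeR adjusted p = 0.0802), nor was Snrpd3 (0.088 ± 0.034, edgeR adjusted p = 0.0621).

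Of 17 histone chaperones tested, 2 rose and 1 fell, where 11.6% of all genes tested were called higher and 11.6% lower. The median log2 fold change of the 17 was -0.0043, and their counts are not read as a response of the list. Nap1l4, a chaperone of H2A and H2B, fell by 0.38 on the log2 scale (SE 0.028, edgeR adjusted p = 3.93e-09). Dnajc9 rose by 0.20 ± 0.040 (edgeR adjusted p = 0.000697) and Nasp, which binds H1 and H3, by 0.094 ± 0.028 (edgeR adjusted p = 0.0185), on the log2 scale.

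Of other RNAs that are known to lack a poly(A) tail, 3 are given here that also differed between the groups. They were chosen after the histone values and their own values were seen. They therefore do not stand for RNAs without a tail in general. Gm26917 and Gm42418 are annotated over a ribosomal RNA repeat. Gm26917 had 5425, 4156 and 4647 raw CPM, which is unscaled by TMM, in p57 KO libraries and 1010, 1002 and 1159 in control libraries, a ratio of 4.49 (log2 fold change 2.17 ± 0.14, edgeR adjusted p = 0.0011). Gm42418 had 2863, 2445 and 2586 raw CPM in p57 KO libraries and 1203, 1096 and 1246 in control libraries, a ratio of 2.23 (log2 fold change 1.16 ± 0.087, edgeR adjusted p = 0.00157). Rmrp, the RNA of the RNase MRP particle, had 44, 29 and 32 counts in p57 KO libraries and 26, 13 and 20 in control libraries (log2 fold change 0.80 ± 0.29, edgeR adjusted p = 0.0495). These 3 and the histone members thus were higher in the same libraries. Their part in the histone result was not tested.

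**Figure D4:**
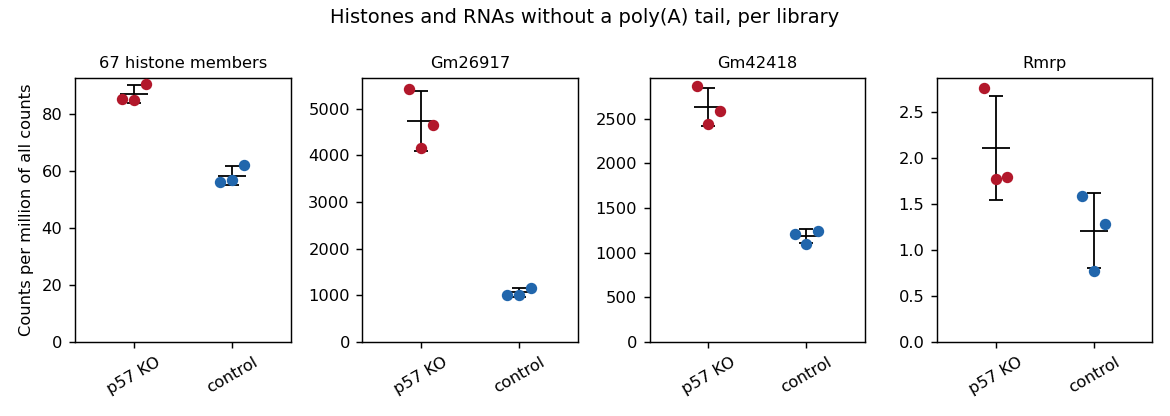
Raw CPM, p57 KO left of control, for Gm26917, Gm42418, Rmrp and the sum of the histone members, 1 point per library with bars for the mean and 1 SD. In each panel all 3 p57 KO points lie above all 3 control points.

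The check of the labels came out in their direction: Cdkn1c had 138, 155 and 152 counts in p57 KO libraries and 344, 364 and 311 in control libraries (log2 fold change -1.22 ± 0.090, edgeR adjusted p = 4.07e-09). The counts of cell type markers called stand beside 11.6% called higher and 11.6% called lower over all genes tested. All 11 markers of undifferentiated spermatogonia were detected, and 9 fell, with summed levels of 3191 to 3381 CPM in p57 KO cells and 3804 to 3879 CPM in control cells. All 20 fibroblast and feeder markers were detected, 5 rose and 0 fell, and their sum was 1432 to 2834 CPM in p57 KO libraries and 918.7 to 1173 CPM in control libraries. Sertoli markers summed to 26.8 to 28.5 CPM in p57 KO libraries and 27.7 to 31.4 CPM in control libraries, Leydig markers to 3.14 to 3.29 CPM in p57 KO libraries and 2.94 to 3.83 CPM in control libraries with Hsd3b1 at 0 in all 6, and spermatid markers to 6.82 to 7.01 CPM in p57 KO libraries and 6.06 to 6.97 CPM in control libraries. Meiotic markers, 1 of 9 of which fell, summed to 576.7 to 585.7 CPM in p57 KO libraries and 598.0 to 610.3 CPM in control libraries. In bulk RNA, fewer cells of a type and less RNA per cell cannot be told apart.

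The fibroblast markers moved with the groups. Their mean log2 CPM was 4.35, 4.94 and 5.46 in p57 KO libraries and 3.52, 4.07 and 3.54 in control libraries. With that score as a covariate, 4 members were called higher and 0 lower, where 1.62% of all genes tested were called higher. Of the 15 called without it, 3 were kept: Hist1h4d at 1.93 (edgeR adjusted p = 0.00119), Hist4h4 at 2.25 (edgeR adjusted p = 0.0315) and Hist1h4n at 3.57 (edgeR adjusted p = 0.00528) on the log2 scale. Hist1h2ba was called as well, at 2.84 (edgeR adjusted p = 0.0261). With the score 12 of the 15 calls were lost. The median log2 fold change of the 29 members tested was 0.85 with the score and 1.07 without it. Of these 29, 17 passed the filter through p57 KO libraries alone, so nothing is read from the median. The score was higher in every p57 KO library than in every control library, so this fit cannot separate score from group. When the null was a fold of 1.2, 9 of the 15 remained called higher, where 2.79% of all genes tested were.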

How the data were processed

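The authors deposited a table of raw counts per gene for the 6 libraries, which was used as deposited. Per the submitters' processing notes, bcl2fastq 2.20, cutadapt 3.4, HISAT2 2.2.1 and HTSeq 2.0.2 were used with build mm10; the annotation, the strand setting and the treatment of reads with several matches are not stated there. Genes that passed edgeR's filterByExpr (minimum count 10, 0.608 CPM in 3 libraries) were fitted with edgeR 4.0.16 in R 4.3.3 (TMM scaling, robust quasi-likelihood F-test, Benjamini-Hochberg adjustment over all 14814 genes, threshold 0.05). Standard errors are the size of the log2 fold change divided by the square root of F. Sums used all 67 members. Alternatives used RLE scaling, DESeq2 1.42.0, limma-voom 3.58.1, other filters, a replicate block, single libraries left out, a fibroblast covariate and a test against a fold of 1.2. The fit was tested on simulated data. Genes and transcripts came from GENCODE M21 (mm10), in which all 67 members matched by identifier. The members and lists were chosen with earlier results of these data known. Named members were up to 4 per class with the highest mean CPM, up to 8 called with the largest rise, the testis-specific members and those of Hist3 and Hist4, with the 3 of smallest p in each comparison list and Slbp. The RNAs without a tail, Hist1h4h and Hist1h2bb were added after their values were seen. No pair of libraries within a group agreed within sampling noise. The common biological coefficient of variation was 4.35%.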

Additional observations from a re-analysis of the deposited data

How the results depend on the processing

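No setting called a histone member lower in p57 KO cells. Against 15 members called higher, RLE scaling gave 15, limma-voom 14 and no filter 21. DESeq2 gave 9 of 36 members with an adjusted p, a filter of 1 CPM in 3 libraries gave 9 of 14 tested, the test against a fold of 1.2 gave 9 (2.79% of all genes higher), and the fibroblast covariate gave 4. Leaving out 1 library gave 13 to 18. Of all genes, 3450 of 14814 were called changed in either direction, 2453 of 15553 by DESeq2 and 3294 of 13886 with the filter of 1 CPM. The number was 469 against a fold of 1.2, 399 with the fibroblast covariate and 2358 to 4029 with 1 library left out. These totals join both directions. For RLE scaling, limma-voom, DESeq2, the 1 CPM filter and single libraries left out, the share of all genes called higher is not given. Nothing is read from the member counts of those settings. The stricter filter tests fewer genes and can also pass a member through p57 KO libraries alone. It did so for Hist1h1d, Hist1h2ac, Hist2h3c1, Hist1h4d, Hist1h4k, Hist1h4c and Hist4h4, all of which it called. Of the members it called, only Hist1h1a and Hist1h2bc reached 1 CPM in every control library. The causes of the other shifts were not tested. The ratios of class sums kept their direction under each alternative run, at 1.24 to 1.35 for H1, 1.69 to 1.81 for H2A, 1.44 to 1.57 for H2B, 1.51 to 1.77 for H3 and 1.67 to 1.84 for H4 with 1 library left out. Uncalled members changed sign, on the log2 scale: with 1 library left out, Hist3h2a ran between -0.24 (without p57 KO replicate 3) and 0.36, Hist3h2ba between -0.021 (without control replicate 2) and 0.27, Hist1h2bg between -0.45 and 0.079 (without p57 KO replicate 3; 0.043 without control replicate 2), and Hist1h3c between -0.42 and 0.033 (without control replicate 3). With the covariate, Hist3h2a was -0.60, Hist1h2bg 0.35 and Hist1h4b -1.05, the last 0.13 without it. Same-numbered libraries deviated together with correlations of 0.19, 0.025 and -0.10, so the numbers do not pair the libraries; the replicate block called 17 members higher, adding Hist1h2ba (edgeR adjusted p = 0.0211) and Hist1h3e (edgeR adjusted p = 0.0234), and 3706 genes in all. Depth limits single members: 38 of 67 had too few counts to be tested.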

Other observations

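Counts over histone members spread thinly: members with at least 1 count numbered 57, 59 and 59 in the p57 KO libraries and 55, 52 and 53 in the control libraries. Without the filter on low counts, 6 more members were called higher: Hist1h2ba, Hist1h4h, Hist1h3e, Hist1h2bp, Hist1h2ai and Hist1h2bb. Over all genes fitted in that way, 9.02% were called higher. Hist1h4h and Hist1h2bb, with the largest log2 fold changes of the 6, were picked after their values were seen. Hist1h4h, an H4 gene, had 38 counts over the p57 KO libraries and 11 over the control libraries, and Hist1h2bb, an H2B gene, had 30 over the p57 KO libraries and 6 over the control libraries.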
